A study of Sus scrofa with 20 samples.

Results

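Among RNA sequencing libraries of epicardial fat, the depot that sits on the surface of the heart, the 14 from Ossabaw miniature pigs given atorvastatin were divided into classes chosen by their level of CXCL10. That level was the number of reads on CXCL10 exons per 1000000 reads of the library (CPM). At or above 20 CPM a library was called CXCL10-high and below it CXCL10-low, which gave 4 high and 10 low libraries of 20 libraries in all. The high class held 2 libraries of pigs on the Western diet, which is high in cholesterol, saturated fat and refined grain, with atorvastatin (WD+S, n = 8 in all), and 2 of pigs on the Heart Healthy diet, which is high in fruit, vegetables, whole grain and unsaturated fat, with the drug (HHD+S, n = 6 in all). The low class held the other 6 WD+S and 4 HHD+S libraries. Atorvastatin inhibits cholesterol synthesis and was given to every pig of both classes, so the classes do not compare a treated with an untreated state. The label of the WD+S group reads atherogenic, which was taken as the Western diet of the design, and 6 libraries of pigs on the Heart Healthy diet without the drug (HHD) are set beside the classes.

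CXCL10 is a chemokine that cells secrete after exposure to interferons, and it draws activated T cells and natural killer (NK) cells through the receptor CXCR3. Type I interferons act through factors such as STAT2 and IRF9, which switch on antiviral genes in nearly all cells. Interferon gamma, made by T and NK cells, acts through factors such as IRF1 and also raises the chemokines CXCL9, CXCL10 and CXCL11, the guanylate-binding proteins and the genes of antigen presentation.

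The CXCL10-high libraries were WD+S replicates 7 and 8, with 25.7 and 161 CPM of CXCL10, and HHD+S replicates 5 and 6, with 214 and 371 CPM. In the CXCL10-low libraries it ran from 3.06 to 16.2 CPM with a median of 5.62, and in the HHD libraries from 1.91 to 9.08 CPM. The value just inside the threshold was 25.7 CPM in WD+S replicate 7, from 168 reads, and the value just outside it was 16.2 CPM in WD+S replicate 1, from 52 reads. These values chose the classes and carry no test.

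**Figure D1:**
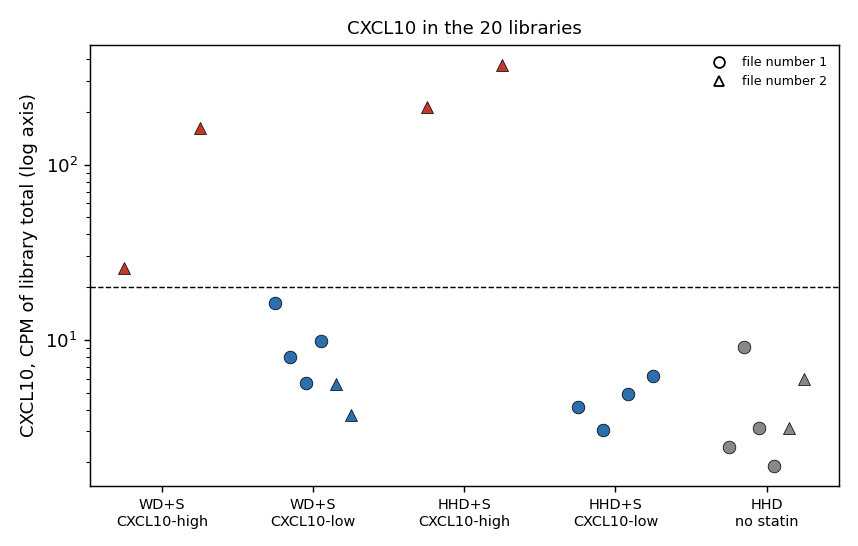
CXCL10 in each of the 20 libraries, as CPM of the library total on a log axis, by diet group and class. Points are libraries, the marker shape gives the number in the deposited file's name, and the dashed line is the threshold of 20 CPM. The 4 CXCL10-high libraries lie between 25.7 and 371 CPM and the 10 CXCL10-low libraries between 3.06 and 16.2 CPM.

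Library totals ran from 3325134 to 6543337 reads in the high class and from 2749337 to 5221052 in the low class, and the difference within diets did not pass a two-sided exact permutation test (p = 0.21, where the smallest possible is 0.0024). All 4 high libraries came from files numbered 2, as did 2 of the 10 low libraries, WD+S replicates 5 and 6. In HHD+S the file number and the class cannot be told apart, because both files numbered 2 are CXCL10-high. A further mark in the file names, C3, was on 3 of the 4 high libraries and on none of the 10 low ones. It was also on HHD replicate 5, where CXCL10 stood at 3.15 CPM. The meaning of these marks is not given. Reads of Y-linked genes numbered 1068 to 1748 in 3 of the 4 high libraries and 1012 to 1263 in 3 of the 10 low ones, and the other libraries of both classes had 0 to 2. HHD replicates 3 and 5 carried both Y-linked reads and reads of the female-specific RNA XIST. The tissue label was checked by adiponectin (ADIPOQ), a hormone of fat cells, which ran from 4628 to 6656 CPM in the high libraries and from 4709 to 11369 CPM in the low libraries of the second table. These levels, and those that follow where library totals are not named, are CPM on library sizes scaled by the TMM method.

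Interferon-induced genes, genes of antigen presentation and genes of T and NK cells were higher in the CXCL10-high libraries, and some genes of the matrix were lower. Of 11366 genes tested, leaving out CXCL10, 183 genes were higher in the CXCL10-high libraries (1.61%) and 25 were lower (0.22%) at an adjusted p under 0.05 (edgeR quasi-likelihood test with diet as a term). The median log2 fold change was 1.44 for the genes called higher and -0.74 for those called lower, against -0.01 for all genes tested. All 4 high libraries lay above all 10 low ones in 0.95% of all genes tested and below them in 0.299%. Among the called genes this held for 90 of the 183 and 13 of the 25, and all 183 and all 25 had the same sign in both diets, but the test that chose these genes largely fixes both counts and they add no support. In the second table, which covers another set of gene names, 243 of 6702 genes were higher (3.63%) and 56 lower (0.836%), and in 1.82% and 0.343% of its genes all 4 high libraries lay above or below all 10 low ones. The classes were cut on a measured gene, so an adjusted p here says that a gene went with CXCL10 across these libraries. Genes of one interferon response are not independent evidence of each other. The counts for gene lists below draw on 1 or both tables. They stand beside shares of all genes of 1.61% and 3.63% for higher calls and 0.22% and 0.836% for lower calls, in the first and second table.

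The ligands were examined first. CXCL9, a chemokine that shares the receptor CXCR3 with CXCL10, had 1.93, 28.4, 40.3 and 108 CPM in the CXCL10-high libraries, named here and below in the order WD+S replicates 7 and 8 and HHD+S replicates 5 and 6, against 0 to 5.41 CPM (median 1.21) in the CXCL10-low libraries. WD+S replicate 7 lay within the low range and the other 3 high libraries lay above it (edgeR adjusted p = 0.0013, log2 fold change 4.55, SE 0.71). In the CXCL10-low libraries CXCL9 had 0 to 18 reads, so it passed the read filter largely through the libraries where it is high. The same limit holds below for CXCL11, ETV7, TBX21 and IDO1. CXCL11, the remaining CXCR3 ligand, had 6, 31, 19 and 28 reads in the CXCL10-high libraries and 0 to 3 reads in the CXCL10-low libraries. It was too low to be tested in the first of the authors' tables, and in the second table it was higher in the CXCL10-high libraries (edgeR adjusted p = 0.0026, log2 fold change 3.997, SE 0.70). CXCR3 itself had 1, 8, 9 and 9 reads in the CXCL10-high libraries and at most 5 in a CXCL10-low library, which was too few to test.

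CCL5, a chemokine of T cells and macrophages, had 18.1, 23.7, 50.1 and 117 CPM in the CXCL10-high libraries and 2.22 to 13.5 CPM (median 5.42) in the CXCL10-low libraries, with no overlap (edgeR adjusted p = 0.0012, log2 fold change 2.90, SE 0.45). CCL8, which attracts monocytes, was also higher, with 10.4, 10.6, 12.2 and 14.8 CPM in the CXCL10-high libraries and 2.83 to 8.82 CPM (median 5.26) in the CXCL10-low libraries (edgeR adjusted p = 0.035, log2 fold change 1.12, SE 0.26). These were the 2 of 14 tested other chemokines that passed, both in the first table, where 1.61% of all genes were called higher. None of 7 tested chemokine receptors passed.

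Reads of interferon genes themselves were few. IFNG, which encodes interferon gamma, had 2, 1, 8 and 5 reads in the CXCL10-high libraries and at most 1 read in any CXCL10-low or HHD library. IFNB1 had 0 reads in every library. The 44 type I and type III interferon genes of the second table together had 11.5, 13.7, 12.1 and 22.1 CPM of the library total in the CXCL10-high libraries and 8.64 to 21.8 CPM of the library total in the CXCL10-low libraries, and these ranges overlap. Many of the 44 are closely related copies, so single members are not given.

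Sensors of foreign nucleic acid were higher in the CXCL10-high libraries for 7 of 13 tested members, and none was lower. The count was 4 of 13 without WD+S replicate 8 or any one of HHD+S replicates 1, 4, 5 and 6. DDX58 (RIG-I), which detects viral RNA in the cytosol, had 188, 476, 359.6 and 357 CPM in the CXCL10-high libraries and 43.9 to 138 CPM (median 79.3) in the CXCL10-low libraries of the second table (edgeR adjusted p = 7.5e-05, log2 fold change 2.18, SE 0.25). All 4 high libraries lay above all 10 low ones. IFIH1 (MDA5), a sensor of long double-stranded RNA, had 34.5, 68.9, 51.3 and 55.2 CPM in the CXCL10-high libraries and 12.8 to 31.3 CPM (median 20.5) in the CXCL10-low libraries (edgeR adjusted p = 0.00056, log2 fold change 1.46, SE 0.21). DHX58 (LGP2), a regulator of both, rose by a log2 fold change of 2.23 and the Z-form nucleic acid sensor ZBP1 by 2.13. The toll-like receptors tested and the adaptor MAVS did not pass.

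Among 22 tested factors of interferon signalling 9 were higher and none lower. IRF7, the factor that amplifies type I interferon production, had 18.6, 41.8, 31 and 45.1 CPM in the CXCL10-high libraries and 2.55 to 8.11 CPM (median 4.51) in the CXCL10-low libraries (edgeR adjusted p = 3.9e-05, log2 fold change 2.80, SE 0.27). IRF1, a factor induced by interferon gamma, had 119, 169.5, 217 and 373 CPM in the CXCL10-high libraries and 32.9 to 74.8 CPM (median 47) in the CXCL10-low libraries (edgeR adjusted p = 8.8e-05, log2 fold change 2.06, SE 0.24). In neither gene did the classes overlap. BATF2, a factor of interferon-treated macrophages, rose by a log2 fold change of 2.93 and IRF9, the DNA-binding partner of STAT2, by 1.51. The receptor chains IFNAR1, IFNAR2, IFNGR1 and IFNGR2 and the kinases JAK1 and TYK2 did not pass the threshold.

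Interferon-induced antiviral genes formed the most complete group. Of 41 tested, 39 were higher in the CXCL10-high libraries and none was lower, and the median log2 fold change of the 31 in the first table was 1.92. The 2 that did not pass were TRIM25 and EIF2AK2. RSAD2 (viperin), which blocks the replication of many viruses, had 62.4, 139, 128 and 117 CPM in the CXCL10-high libraries and 5.95 to 51.7 CPM (median 14.6) in the CXCL10-low libraries (edgeR adjusted p = 0.0013, log2 fold change 2.85, SE 0.45). ISG15, a ubiquitin-like protein attached to other proteins after interferon, had 242, 780.5, 385 and 658 CPM in the CXCL10-high libraries and 16.1 to 179 CPM (median 63.1) in the CXCL10-low libraries of the second table (edgeR adjusted p = 0.00019, log2 fold change 3.18, SE 0.42). The classes did not overlap in either gene. UBA7 and UBE2L6, the enzymes that activate and transfer ISG15, were higher as well, by log2 fold changes of 1.97 and 2.25.

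MX1, a GTPase that traps viral nucleoprotein, had 376, 961, 607 and 739.9 CPM in the CXCL10-high libraries and 74.3 to 256 CPM (median 140.2) in the CXCL10-low libraries (edgeR adjusted p = 6.4e-05, log2 fold change 2.38, SE 0.26). OAS1, which makes the oligoadenylates that activate RNase L, had 251, 479, 435 and 446 CPM in the CXCL10-high libraries and 67 to 199.6 CPM (median 105) in the CXCL10-low libraries (edgeR adjusted p = 0.00034, log2 fold change 1.87, SE 0.25). IFIT3, a member of a family that binds viral RNA, had 119, 212, 204 and 189 CPM in the CXCL10-high libraries and 24.3 to 64.2 CPM (median 40.2) in the CXCL10-low libraries (edgeR adjusted p = 3.9e-05, log2 fold change 2.21, SE 0.21). In each of these genes the lowest high library was WD+S replicate 7 and it still lay above every low library. MX2 and IFIT2 were higher by 1.91 and 1.07 on the log2 scale, and in both WD+S replicate 7 lay within the low range. IFIT1 rose by 1.92, IFI44 by 1.98, SAMD9 by 1.63 and CMPK2, a mitochondrial nucleotide kinase, by 2.33 (edgeR adjusted p at most 8.5e-05 each).

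The guanylate-binding proteins, GTPases that attack the vacuoles of intracellular microbes and are strongly induced by interferon gamma, were higher for 6 of 7 tested members of their group. GBP1 had 351, 712, 808 and 1452 CPM in the CXCL10-high libraries and 31.1 to 120.4 CPM (median 61.1) in the CXCL10-low libraries (edgeR adjusted p = 3.9e-05, log2 fold change 3.76, SE 0.37). GBP2 had 103, 173, 242 and 338 CPM in the CXCL10-high libraries and 25.6 to 40.5 CPM (median 34.8) in the CXCL10-low libraries, with the smallest p of all genes tested (edgeR adjusted p = 2e-05, log2 fold change 2.62, SE 0.22). The classes stood well apart in both genes. UBD (FAT10), a ubiquitin-like protein that sends proteins to the proteasome, had 59.9, 105, 165 and 267 CPM in the CXCL10-high libraries and 17.4 to 27.9 CPM (median 23) in the CXCL10-low libraries (edgeR adjusted p = 3.9e-05, log2 fold change 2.57, SE 0.24). ETV7, a transcription factor of the ETS family, had 6.9, 21.3, 21.5 and 26 CPM in the CXCL10-high libraries and 0.642 to 3.51 CPM (median 1.7) in the CXCL10-low libraries (edgeR adjusted p = 5.6e-05, log2 fold change 3.40, SE 0.36). Reads of the closely related GBP genes may be split between rows, so the level of a single member is uncertain.

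**Figure D2:**
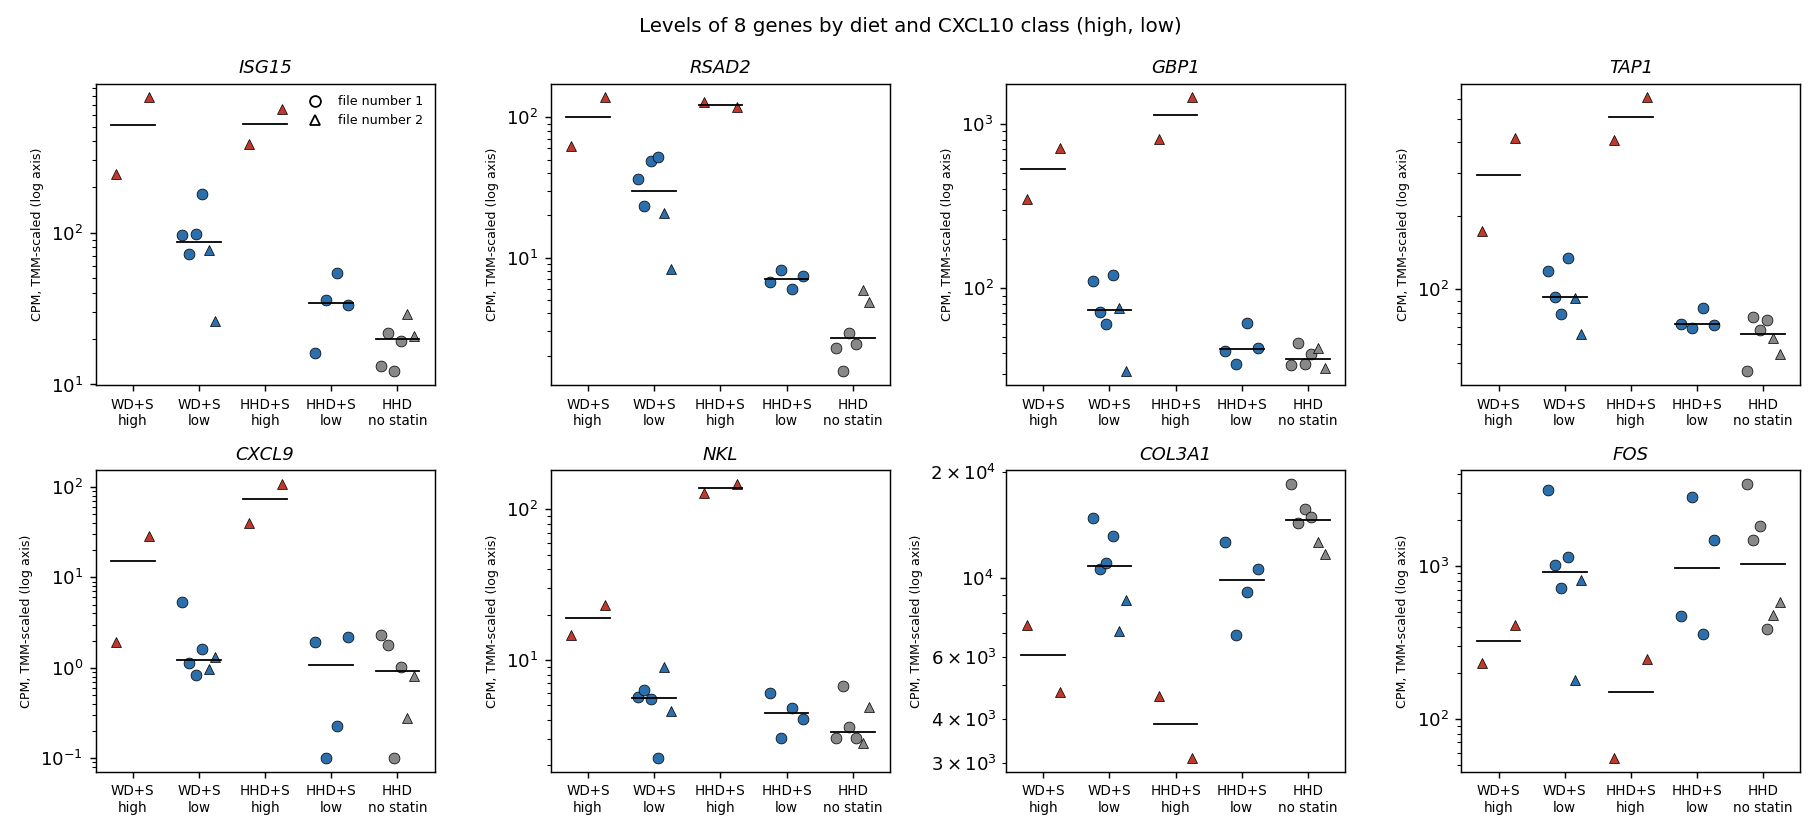
Levels of 8 genes in each library, as CPM on TMM-scaled library sizes on log axes, by diet group and CXCL10 class (high, low, and HHD without statin). Points are libraries, bars are medians, marker shapes give the file number and a value of 0 is drawn at 0.1. The CXCL10-high libraries lie above the CXCL10-low ones for ISG15, RSAD2, GBP1 and TAP1, overlap with them in WD+S replicate 7 for CXCL9, and for COL3A1 the 2 low libraries of file number 2 are the lowest of the low class in WD+S.

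Antigen presentation followed. Of 15 tested genes of the MHC class I pathway 13 were higher and none was lower. TAP1, which pumps peptides into the endoplasmic reticulum, had 173, 417, 408 and 612 CPM in the CXCL10-high libraries and 65.7 to 134 CPM (median 81.6) in the CXCL10-low libraries of the second table (edgeR adjusted p = 8.5e-05, log2 fold change 2.19, SE 0.25). B2M, the light chain of class I molecules, had 3501, 6219, 6696 and 7928 CPM in the CXCL10-high libraries and 1772 to 2534 CPM (median 2151) in the CXCL10-low libraries of the second table (edgeR adjusted p = 7.4e-05, log2 fold change 1.47, SE 0.16). In both the classes did not overlap, and B2M was lowest among the high libraries in WD+S replicate 7. The subunits that turn the proteasome into the immunoproteasome were higher too, by log2 fold changes of 1.73 for PSMB8, 1.92 for PSMB9 and 1.38 for PSMB10. Rows named for the pig class I heavy chains, TMP-SLA-2 and TMP-SLA-3, were higher by 1.45 and 1.17, and reads of these similar genes may be shared between rows.

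Of 10 tested genes of the MHC class II pathway 8 were higher and none was lower, against 4 of 10 higher without HHD+S replicate 6 and 5 of 10 without WD+S replicate 8. CIITA, the switch of class II transcription, had 15.4, 19.8, 35.9 and 32.2 CPM in the CXCL10-high libraries and 4.12 to 13.2 CPM (median 8.3) in the CXCL10-low libraries (edgeR adjusted p = 0.0045, log2 fold change 1.597, SE 0.29). SLA-DRA, a class II chain, had 908, 1774, 1752 and 2462 CPM in the CXCL10-high libraries and 578 to 1017 CPM (median 753) in the CXCL10-low libraries of the second table (edgeR adjusted p = 0.0017, log2 fold change 1.17, SE 0.19). CD74, the invariant chain, had 1588, 2569.7, 2526 and 4572 CPM in the CXCL10-high libraries and 891 to 1619 CPM (median 1066) in the CXCL10-low libraries of the second table (edgeR adjusted p = 0.0031, log2 fold change 1.19, SE 0.21). The classes did not overlap for CIITA, while WD+S replicate 7 lay within the low range for SLA-DRA and CD74.

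Genes of T and NK cells were higher in the CXCL10-high libraries for 10 of 16 tested, and none was lower. A further 17 members of the list had too few reads in the table where they were looked up, which was the first wherever it holds them. The rows NKL and GNLY, which may be the same pig gene, are both among the 10. Because some members pass the read filter only through the libraries where they are high, this count covers the tested members alone. It was 6 of 16 without HHD+S replicate 5 or 6, 6 of 19 without WD+S replicate 8 and 17 of 22 without WD+S replicate 7. In bulk tissue a change in the number of cells of a type and a change in their RNA per cell cannot be told apart. CD8A, a chain of the cytotoxic T cell co-receptor, had 3.37, 12.5, 20.5 and 33.9 CPM in the CXCL10-high libraries and 0.642 to 4.51 CPM (median 1.88) in the CXCL10-low libraries (edgeR adjusted p = 0.0019, log2 fold change 2.65, SE 0.43). CD2, an adhesion receptor of T and NK cells, had 12, 26.5, 73.1 and 58.1 CPM in the CXCL10-high libraries and 2.83 to 10.21 CPM (median 6.11) in the CXCL10-low libraries (edgeR adjusted p = 0.00035, log2 fold change 2.58, SE 0.35). In WD+S replicate 7, CD8A lay within the low range and CD2 just above it.

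NKL, the row for NK-lysin, a protein of cytotoxic granules, had 14.6, 23.3, 128 and 147 CPM in the CXCL10-high libraries and 2.24 to 8.99 CPM (median 5.17) in the CXCL10-low libraries (edgeR adjusted p = 0.00032, log2 fold change 3.46, SE 0.46). Both HHD+S libraries stood far above both WD+S libraries, and all 4 lay above the low class. TBX21, the factor of type 1 T cells and NK cells that drives interferon gamma, had 3.05, 4.52, 18.8 and 16.2 CPM in the CXCL10-high libraries and 0.368 to 2.25 CPM (median 1.05) in the CXCL10-low libraries (edgeR adjusted p = 0.0015, log2 fold change 2.81, SE 0.45). With such low levels in the low class, TBX21 passed the read filter largely through the CXCL10-high libraries. GZMB, the granule protease granzyme B, had 3, 37, 47 and 71 reads in the CXCL10-high libraries and at most 2 in any CXCL10-low library, and was not tested. The summed level of the listed T and NK genes of the first table ran from 68.7 to 567 CPM in the CXCL10-high libraries and from 32.2 to 106 CPM in the CXCL10-low libraries.

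Macrophage and monocyte genes passed for 2 of 18 tested, both in the first table, where 1.61% of all genes were called higher. All 14 tested in that table had a positive log2 fold change, with a median of 0.98. The count was 7 of 18 without WD+S replicate 1, 1 of 18 without WD+S replicate 8, 9 of 18 at a cutoff of 10 CPM and 10 of 18 without the 2 libraries nearest the cutoff. FCGR1A, the high-affinity antibody receptor that interferon gamma induces, had 10.8, 15.3, 23.5 and 23.3 CPM in the CXCL10-high libraries and 3.19 to 6.71 CPM (median 5.21) in the CXCL10-low libraries (edgeR adjusted p = 0.00031, log2 fold change 1.77, SE 0.23). SIGLEC1, a sialic acid receptor that interferon induces on macrophages, had 19.7, 54.9, 63.3 and 69.9 CPM in the CXCL10-high libraries and 5.14 to 26.4 CPM (median 14.4) in the CXCL10-low libraries (edgeR adjusted p = 0.0041, log2 fold change 1.76, SE 0.31). For SIGLEC1 the low range reached above WD+S replicate 7. MSR1, a scavenger receptor that serves as a general macrophage marker, had 6.9, 24.8, 27.1 and 38.9 CPM in the CXCL10-high libraries and 5.14 to 20.4 CPM (median 9.21) in the CXCL10-low libraries and did not pass (edgeR adjusted p = 0.13, log2 fold change 1.27, SE 0.38), and WD+S replicate 7 lay near the bottom of the low range. None of 5 tested B and plasma cell genes passed, and no neutrophil gene did of the 1 tested. Of 6 dendritic cell genes 1 passed, IDO1, and 1 call in so few genes is not read as a result about the list.

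A mixed list of T cell checkpoint, tryptophan and cell death genes had 7 of 11 tested members higher, namely IDO1, WARS, CASP1, CASP4, TNFSF10, the death receptor FAS and the galectin LGALS9. IDO1, which degrades tryptophan and is induced by interferon gamma, had 2.57, 6.68, 15.6 and 22.4 CPM in the CXCL10-high libraries and 0.277 to 3.6 CPM (median 1.3) in the CXCL10-low libraries (edgeR adjusted p = 0.0014, log2 fold change 2.68, SE 0.42). WARS, the tryptophan tRNA synthetase that interferon gamma also induces, had 131, 189, 225 and 371 CPM in the CXCL10-high libraries and 83.8 to 112 CPM (median 96.9) in the CXCL10-low libraries of the second table (edgeR adjusted p = 0.00019, log2 fold change 1.15, SE 0.15). The low range took in WD+S replicate 7 for IDO1 but not for WARS. IDO1 had 1 to 12 reads in the CXCL10-low libraries and passed the read filter largely through the high ones. CASP1, the protease of the inflammasome, and TNFSF10 (TRAIL), a death ligand, rose by 2.01 and 1.15 on the log2 scale. CD274 (PD-L1), the ligand of the T cell checkpoint PD-1, had 4.39, 2.89, 7.18 and 11 CPM in the CXCL10-high libraries and 0 to 4.44 CPM (median 1.35) in the CXCL10-low libraries of the second table and did not pass (edgeR adjusted p = 0.066, log2 fold change 2.01, SE 0.58), with overlapping ranges. Of 14 tested NF-kB target genes 1 was higher, BIRC3, an inhibitor of cell death, by 0.69, and of 13 complement genes 1 was higher, the protease C1S, by 1.05. Both calls were in the second table, where 3.63% of all genes were called higher. With so few genes, 1 call is not read as a result about either list.

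**Figure D3:**
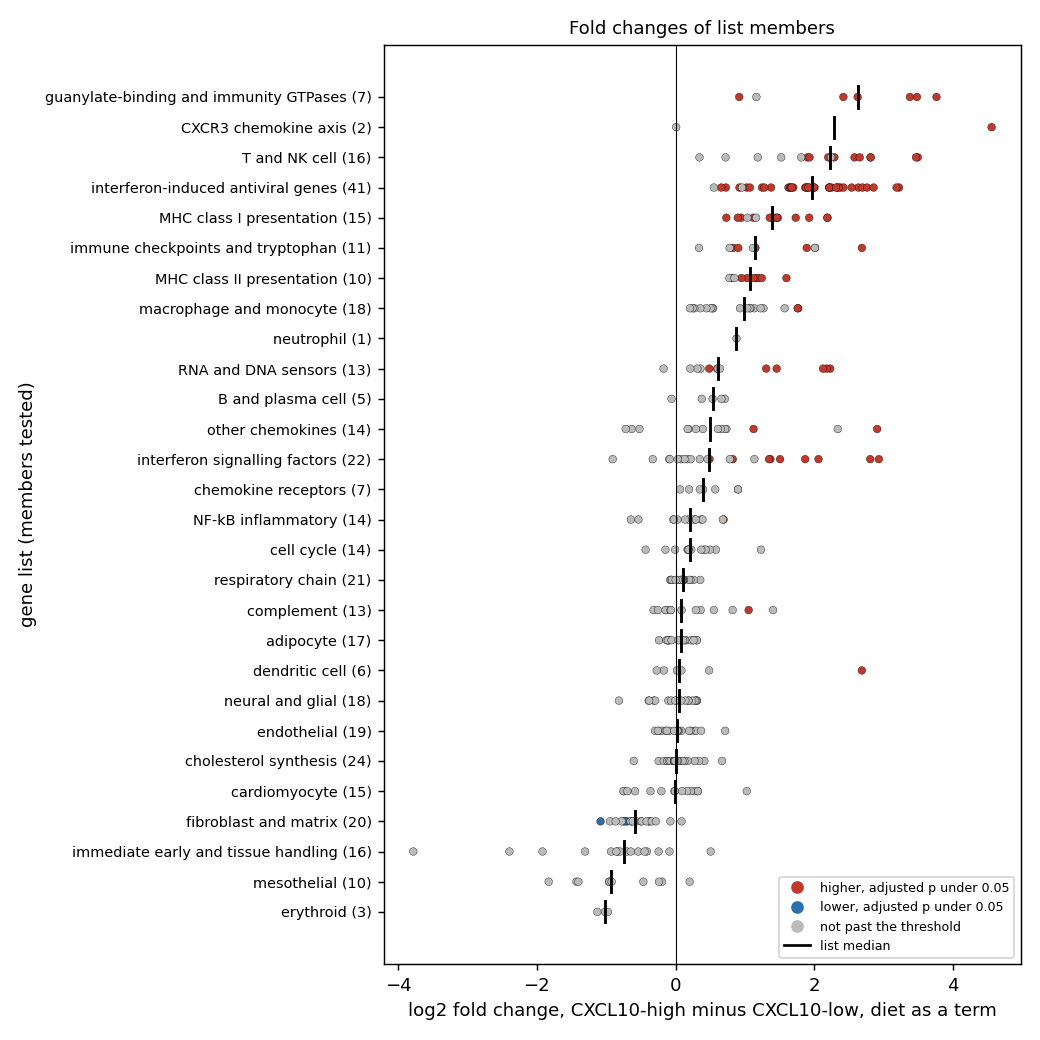
Log2 fold changes of the tested members of 28 gene lists, CXCL10-high minus CXCL10-low with diet as a term, one point per gene. Lists are ordered by their median (black bar), red points are higher and blue points lower at an adjusted p under 0.05, and the number of tested members stands beside each name. Antiviral, guanylate-binding, antigen presentation and T and NK lists lie to the right, and the fibroblast, immediate early, mesothelial and erythroid lists to the left.

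Among the 25 genes called lower, several belong to the extracellular matrix and its fibroblasts. Of 20 tested genes of the fibroblast and matrix list 4 were lower and none was higher, namely FAP, SPARC, COL3A1 and MMP2, and the 16 in the first table had a median log2 fold change of -0.56. The count of lower genes was 0 of 20 without HHD+S replicate 6, 2 of 20 with HHD+S replicate 5 or WD+S replicate 8 left out, and 7 of 20 with WD+S replicate 5 left out. COL3A1, the chain of type III collagen, had 7374, 4750.2, 4652 and 3093 CPM in the CXCL10-high libraries and 6922 to 14855 CPM (median 10652) in the CXCL10-low libraries (edgeR adjusted p = 0.016, log2 fold change -1.08, SE 0.22). FAP, a surface protease of activated fibroblasts, had 261, 241, 253 and 215 CPM in the CXCL10-high libraries and 319 to 571 CPM (median 385) in the CXCL10-low libraries (edgeR adjusted p = 0.008, log2 fold change -0.70, SE 0.13). The classes did not overlap for FAP, and for COL3A1 WD+S replicate 7 lay within the low range. SPARC, a collagen-binding matrix protein, had 988, 993, 677 and 586 CPM in the CXCL10-high libraries and 933 to 1609.9 CPM (median 1346) in the CXCL10-low libraries (edgeR adjusted p = 0.015, log2 fold change -0.75, SE 0.16). WD+S replicates 7 and 8 overlapped the low range for SPARC.

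The genes with the smallest p among those lower were led by VSTM4, a membrane protein with an immunoglobulin-type domain, with 47, 37.3, 49.6 and 47.2 CPM in the CXCL10-high libraries and 57.2 to 88.4 CPM (median 78.7) in the CXCL10-low libraries (edgeR adjusted p = 0.00035, log2 fold change -0.77, SE 0.10). BMX, a tyrosine kinase, had 4.65, 4.95, 3.18 and 4.43 CPM in the CXCL10-high libraries and 8.04 to 15.6 CPM (median 10.7) in the CXCL10-low libraries (edgeR adjusted p = 0.00098, log2 fold change -1.35, SE 0.20). Neither gene overlapped between classes. CPXM1, a carboxypeptidase-like secreted protein, had 42.7, 25, 16.6 and 7.97 CPM in the CXCL10-high libraries and 38.4 to 119 CPM (median 78.1) in the CXCL10-low libraries (edgeR adjusted p = 0.0053, log2 fold change -1.77, SE 0.32). Only WD+S replicate 7 of the high class overlapped the low range for CPXM1. The other genes of this set were CD109, a co-receptor of TGF-beta, ABI3BP, FNDC1 and CCDC80, proteins of the matrix, RECK, an inhibitor of matrix proteases, and RBM3, a cold-induced RNA-binding protein, with log2 fold changes between -1.17 and -0.61.

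The lower values were set beside the file number. For the 25 genes the median log2 difference from the mean of the low libraries was -0.19 and -0.15 in the 2 CXCL10-low WD+S libraries of file number 2 and 0.04 to 0.09 in the 4 of file number 1. In the HHD libraries it was 0.13 and 0.16 in the 2 of file number 2 and 0.0037 to 0.37 in the 4 of file number 1, and these overlap. Within WD+S the 2 CXCL10-low libraries of file number 2 had COL3A1 at 7097 and 8694 CPM, against 10661 to 14855 CPM in the 4 of file number 1, while the lowest CXCL10-low library for COL3A1 was one of HHD+S with file number 1, at 6922 CPM. With file number as a term, 60 genes were higher and 2 lower, and of the main calls 59 of the 183 and 0 of the 25 were shared. The only CXCL10-low libraries of file number 2 are those 2 of WD+S. Under that term 26 of 42 tested antiviral genes were still called with a median log2 fold change of 2.36, and the T and NK and the MHC class II lists had none called, although their medians were 2.45 and 1.31. The median of the fibroblast and matrix list over both tables was -0.03 under that term and -0.59 without it. Within the WD+S libraries of file number 2 alone, 2 high against 2 low, edgeR called no gene of 11405 tested in either direction. At an unadjusted p under 0.05 there were 402 higher and 265 lower, where a share of 0.05 is expected by chance alone. The median log2 fold change there was 1.98 for the antiviral list, 1.61 for the T and NK list and -0.22 for the fibroblast and matrix list. The part of the file number in these results cannot be told apart from the class in HHD+S.

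A list of immediate early genes, which respond within minutes to handling of tissue or to growth signals, and of other tissue handling genes had no call among 16 tested. FOS, a member of the AP-1 factor, had 233, 409.7, 55.2 and 245 CPM in the CXCL10-high libraries and 178 to 3149 CPM (median 916) in the CXCL10-low libraries (edgeR adjusted p = 0.12, log2 fold change -2.39, SE 0.71). EGR1 had 365, 421, 93.3 and 274 CPM in the CXCL10-high libraries and 304 to 2132 CPM (median 879.7) in the CXCL10-low libraries of the second table (edgeR adjusted p = 0.054, log2 fold change -1.92, SE 0.53). The classes overlapped in both genes, and all 10 tested members in the first table had a negative fold change with a median of -0.67 on the log2 scale. The 6 members read from the second table had a median of -0.78. Among the latter HSPB1 went the other way, with a log2 fold change of 0.51 (edgeR adjusted p = 0.089). The part of these genes in the other results was not tested.

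Adipocyte and endothelial genes had medians near 0. None of 17 adipocyte genes passed, with a median log2 fold change of -0.06 in the first table, and PPARG, the master factor of fat cells, had 136, 143, 195 and 155 CPM in the CXCL10-high libraries and 90.1 to 215 CPM (median 131) in the CXCL10-low libraries (edgeR adjusted p = 0.68, log2 fold change 0.15, SE 0.12), with overlapping ranges. None of 19 endothelial genes passed, and PECAM1 had 703, 716, 985 and 903 CPM in the CXCL10-high libraries and 788 to 1243 CPM (median 929.6) in the CXCL10-low libraries (edgeR adjusted p = 0.28, log2 fold change -0.24, SE 0.09). The ranges of PECAM1 overlapped too. These lists draw on both tables, where 1.61% and 3.63% of all genes were called higher and 0.22% and 0.836% lower. No call among so few genes is close to these shares. None passed of 15 cardiomyocyte, 18 neural and glial or 14 cell cycle genes. The summed level of the cardiomyocyte genes of the first table ran from 373 to 2378 CPM in the CXCL10-high libraries and from 55.8 to 6476 CPM in the CXCL10-low libraries. MKI67, a marker of dividing cells, had 5.14, 13.1, 12.7 and 15 CPM in the CXCL10-high libraries and 2.1 to 12 CPM (median 5.61) in the CXCL10-low libraries (edgeR adjusted p = 0.13, log2 fold change 1.23, SE 0.37), and WD+S replicate 7 was the lowest of the high class.

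Mesothelial and erythroid genes had lower medians than the fibroblast and matrix list, with none called over both diets. Of 10 tested mesothelial genes, which mark the lining on the surface of the heart, 9 had a negative log2 fold change and the median was -0.94, or -0.41 without HHD+S replicate 3. Their summed level ran from 205 to 414 CPM in the CXCL10-high libraries and from 265 to 849.7 CPM in the CXCL10-low libraries. All 3 tested erythroid genes, which mark red blood cells, were negative, with a median of -1.02. Their summed level in HHD+S was 16.6 and 70.2 CPM in the CXCL10-high libraries and 172 to 914 CPM in the CXCL10-low libraries, which do not overlap. In WD+S it was 415 and 642 CPM in the CXCL10-high libraries and 166 to 748 CPM in the CXCL10-low libraries, which overlap. Within HHD+S alone the globin genes HBA and HBB fell by 3.63 and 3.80 on the log2 scale (edgeR adjusted p = 0.039 and 0.042), and ALAS2, the first enzyme of haem synthesis in red cells, passed as well (edgeR adjusted p = 0.046). ALAS2 stood at 0 and 0.295 CPM in the CXCL10-high HHD+S libraries and at 1.47 to 16.8 CPM in the CXCL10-low ones. The difference between diets did not pass for any of the 3 genes (edgeR adjusted p = 0.50). These levels moved with the immune genes in HHD+S, and their part in those results was not tested.

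Cholesterol synthesis, the pathway that atorvastatin inhibits, was not called different between the classes, since none of 24 tested genes passed and their median log2 fold change in the first table was -0.01. INSIG1, a sterol-responsive regulator of the pathway, had 58.3, 111, 85.8 and 102 CPM in the CXCL10-high libraries and 49.3 to 97.8 CPM (median 70.8) in the CXCL10-low libraries (edgeR adjusted p = 0.42, log2 fold change 0.34, SE 0.17), with overlapping ranges. None of 21 respiratory chain genes passed either. Missing the threshold does not show that these levels were equal.

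**Figure D4:**
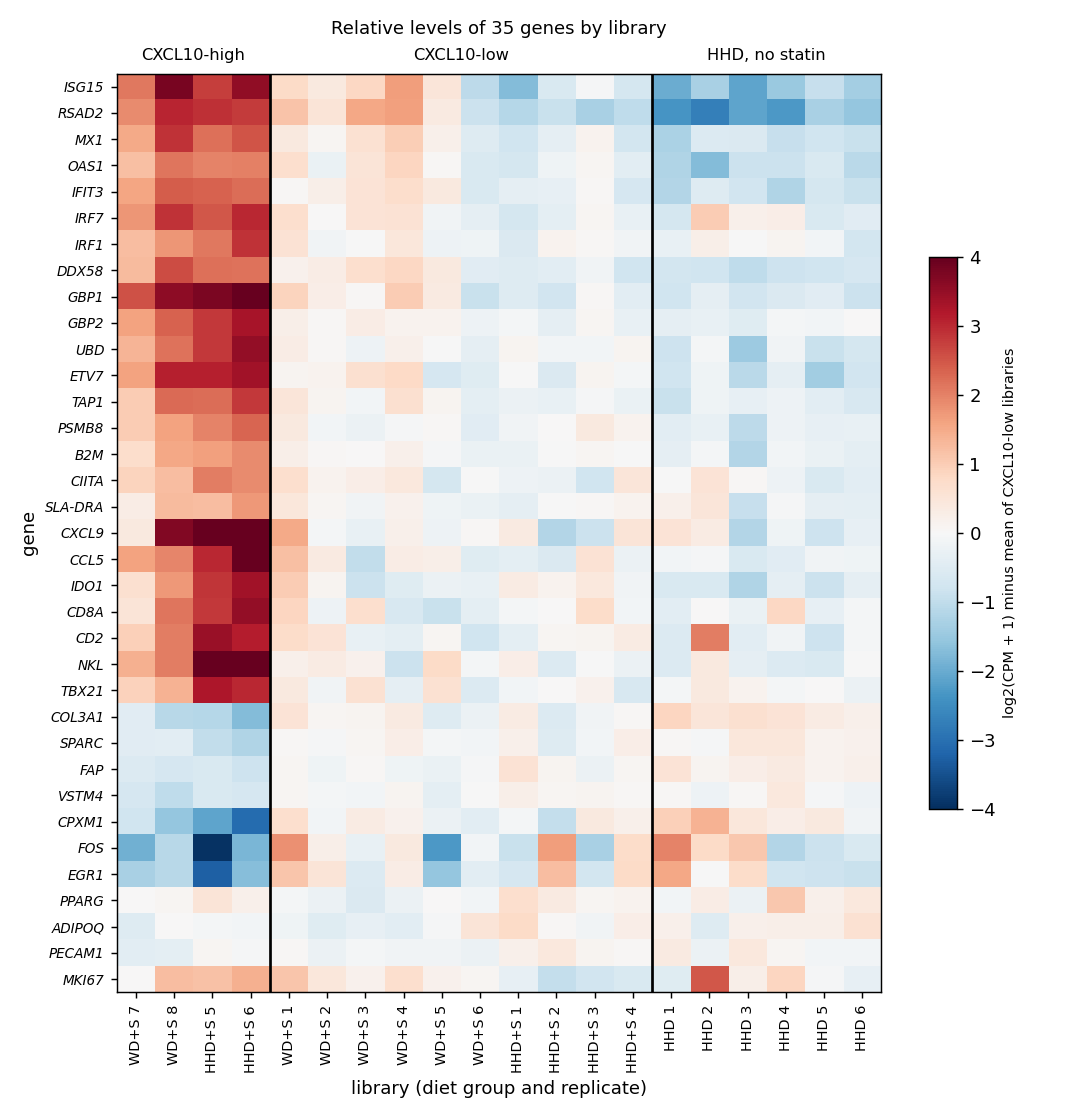
Levels of 35 genes in each library as log2(CPM + 1) minus the mean of the CXCL10-low libraries, with the 4 CXCL10-high libraries at the left, the 10 CXCL10-low ones in the middle and the 6 HHD ones at the right. Colours end at 4 and -4 on the log2 scale. WD+S replicate 7 is red for the antiviral and GBP genes and near white for CXCL9, CD8A and SLA-DRA, and the HHD libraries are blue for RSAD2 and ISG15.

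The 4 high libraries did not form one uniform class. The median log2 difference of the 183 genes from the mean of the low libraries was 0.60 and 1.42 in WD+S replicates 7 and 8 and 1.61 and 1.76 in HHD+S replicates 5 and 6. Among the CXCL10-low libraries it ran from -0.29 to 0.40, and the highest of these was WD+S replicate 1, which also had the highest CXCL10 of the low class. The order of these 4 medians was that of their CXCL10. The 183 genes were chosen by the CXCL10 classes of these same libraries, which favours such an order. It was not tested and adds no support. For the antiviral list the median difference was 1.18, 2.24, 1.99 and 2.01 in the CXCL10-high libraries, against at most 0.70 in a CXCL10-low library. For the T and NK list it was 0.21, 1.29, 2.70 and 2.99 in the CXCL10-high libraries, against at most 0.88 in a CXCL10-low library. By these medians WD+S replicate 7 was above every low library for the antiviral list and within the low range for the T and NK list.

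Within the low class the levels of some antiviral genes ran over different ranges in the diets. RSAD2 ran from 8.26 to 51.7 CPM in the 6 CXCL10-low WD+S libraries, from 5.95 to 8.21 CPM in the 4 CXCL10-low HHD+S libraries and from 1.55 to 5.91 CPM in the HHD libraries. ISG15 ran from 26.3 to 179 CPM in the CXCL10-low WD+S libraries, from 16.1 to 54 CPM in the CXCL10-low HHD+S libraries and from 12.2 to 29.1 CPM in the HHD libraries. For ISG15 these 3 ranges overlapped. For RSAD2 they met nearly end to end, at ends that rested on 21 to 43 reads, and on plain library totals HHD replicate 5, with 21 of 3489991 reads, stood above HHD+S replicate 3, with 26 of 4658216 reads. GBP1 ran from 31.1 to 120.4 CPM, from 34.4 to 61.5 CPM and from 32.4 to 46.2 CPM in the same 3 sets of libraries, which overlap. These sets were compared by their ranges only.

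The comparison was repeated within each diet. In HHD+S, with 2 high against 4 low libraries, 265 genes were higher (2.37%) and 29 lower (0.259%), and in WD+S, with 2 high against 6 low libraries, 2 were higher (0.0176%) and none lower. In the WD+S fit 434 higher and 400 lower genes, of 11762 that its own filter kept, had an unadjusted edgeR p under 0.05. By chance alone a share of 0.05 is expected. Of the 265 genes, 251 had a positive fold change in WD+S, against 49.8% of all genes, with a median log2 fold change of 1.80 in HHD+S and 0.69 in WD+S. These genes were chosen by their difference in HHD+S, which favours larger values there, so the medians do not compare the diets. Of the 29 lower genes, among them HBA, HBB and ALAS2, 21 had a negative value in WD+S. GBP1 differed by 2.76 in WD+S and by 4.65 in HHD+S on the log2 scale, and ISG15 by 2.48 in WD+S and by 3.87 in HHD+S.

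A test of the difference between diets called 1 gene of 11366 (0.0088%), NKL, for which the fold change was 1.75 in WD+S and 4.96 in HHD+S on the log2 scale (interaction -3.22, edgeR adjusted p = 0.048). The row GNLY of the second table, which names the related granulysin and may be the same pig gene, gave an interaction of -3.04 (edgeR adjusted p = 0.046, 1 call of 6702 genes, 0.0149%). At an unadjusted p under 0.05 there were 712 of the 11366 genes, where a share of 0.05 is expected by chance alone. The CXCL10-high libraries had 25.7 and 161 CPM of CXCL10 in WD+S and 214 and 371 CPM in HHD+S, on library totals. Diet, CXCL10 level and file number cannot be told apart in this interaction. With any one of the 4 high libraries left out no gene was called for the interaction by edgeR, with 502 to 958 genes at an unadjusted p under 0.05.

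**Figure D5:**
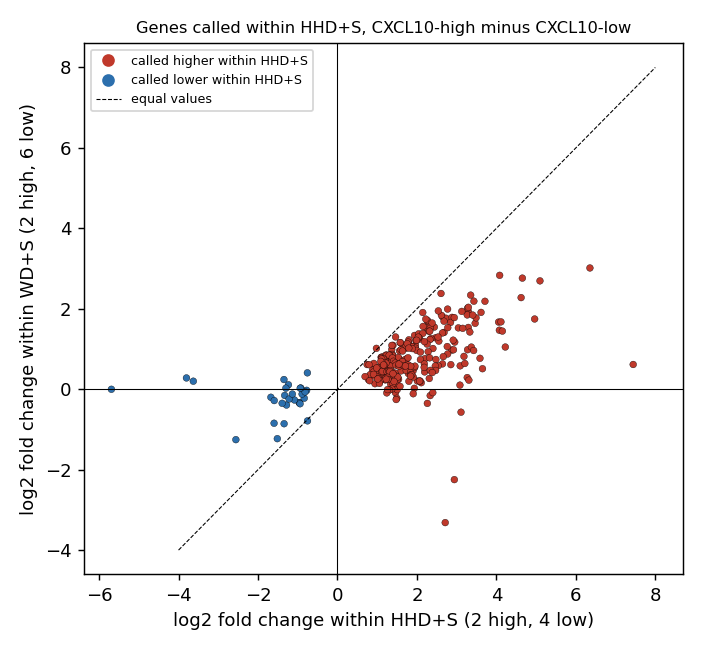
Log2 fold changes, CXCL10-high minus CXCL10-low, of the genes called within HHD+S (horizontal) and in WD+S (vertical), one point per gene. The dashed line marks equal values. Of the 265 genes higher within HHD+S 251 lie above 0 in WD+S, most of them below the dashed line, with medians of 1.80 and 0.69. The genes were chosen within HHD+S, which favours larger values there.

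The HHD libraries, which had no part in the classes, held CXCL10 between 1.91 and 9.08 CPM of the library total, and no library reached the threshold. The 183 genes lay at a median of -0.35 to 0.03 from the mean of the CXCL10-low libraries in them. Across these 6 libraries CXCL10 was set against RSAD2, CMPK2, MX1, OAS1, GBP1, CXCL9 and CD8A on the log2(CPM + 1) scale. Pearson's r ran from -0.75 for OAS1 to 0.53 for MX1, and Spearman's rho from -0.37 for OAS1 to 0.77 for MX1. None of the 7 relations passed the exact permutation test, with adjusted p of 0.54 or more for r and 0.72 or more for rho. With the 2 libraries farthest from the median of CXCL10 left out, r for OAS1 was 0.38 and for MX1 0.53. At this depth CXCL10 rested on 10 to 35 reads in these libraries.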

How the data were processed

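RNA of the fat had been DNase-treated and selected for quality before sequencing with a kit that keeps no strand, per the labels' protocols. The submitters' processing notes name bcl2fastq 2.17.1.14 and the build Sscrofa10.2, and the sources used here name no aligner or counter. Each library came with a pair of tables of whole-number counts as deposited by the authors, unique exon reads for 22861 Ensembl rows in the first and unique gene reads for 10157 gene names in the second. Their RPKM values, deposited in the second table per the file headers, entered no result. Symbols missing from the first table were taken from a reference list for 890 of 6101 rows. Genes absent from the first table were read from the second, and so were named genes too low to be tested in the first. List members that the first table holds were counted from it alone, also where they were too low to test there. The tables were normalized and tested apart. Depth was 2749337 to 6543337 counts per library, so 1 read is worth less than 1 CPM and low genes rest on few reads.

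The members and the gene lists were chosen with earlier results of these data known. Tests used the quasi-likelihood method of edgeR 4.0.16 (R 4.3.3; TMM scaling, minimum count 10, minimum total 15, class plus diet over the 14 statin libraries), with Benjamini-Hochberg adjustment over all genes and a threshold of 0.05. SE is the log2 fold change over the root of F. Lists are given by counts and medians, with no test. Named genes are a fixed panel around CXCL10, the 12 with the smallest p in each direction and up to 4 per list with the smallest p. Genes named outside this rule, such as TRIM25, EIF2AK2 and the interferon receptors, complete a count and were chosen after their values were seen. Some genes that this rule names are not reported here. DESeq2 1.42.0, limma-voom (limma 3.58.1), other scalings, filters and cutoffs, CXCL10 as a continuous term, file number or Y-linked level as a term, each diet alone and each library left out were the alternatives. Single values across libraries were tested by exact permutation over all arrangements. The fits were tested on simulated data. Libraries were taken as separate animals because their titles differ; otherwise p-values measure technical spread in part.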

Additional observations from a re-analysis of the deposited data

Results flagged for a closer look

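For NKL the high against low difference was not the same in both diets by the interaction test. The interaction was -3.22 on the log2 scale (WD+S minus HHD+S, edgeR adjusted p = 0.048), and the row GNLY of the second table gave -3.04 (edgeR adjusted p = 0.046). The high libraries of HHD+S also had more CXCL10 than those of WD+S, so diet, CXCL10 level and file number cannot be told apart here. Each was the 1 gene called in its table.

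In 81 genes, CXCL10 included, the highest or lowest library of each class was compared with the rest of its class by Dixon's gap criterion on log2(CPM + 1). Of 162 sets of values 10 had such a library, and chance alone flags about 1 in 20. In 5 of the 10 it was WD+S replicate 7 as the lowest of the CXCL10-high class, for OAS1 (251 CPM, the other 3 at 435 to 479), IRF9 (194 CPM, the other 3 at 295 to 315), UBE2L6 (117 CPM, the other 3 at 251.5 to 271), ETV7 (6.90 CPM, the other 3 at 21.3 to 26.0) and MKI67 (5.14 CPM, the other 3 at 12.7 to 15.0). In the CXCL10-low class WD+S replicate 1 was highest for CXCL11 (0.901 CPM, the others at 0 to 0.368) and for FNDC1 (170.0 CPM, the others at 84.2 to 123). HHD+S replicate 1 was highest for FAP (571 CPM, the others at 319 to 418) and lowest for RECK (29.0 CPM, the others at 37.8 to 50.9). HHD+S replicate 2 was lowest for SPARC (933 CPM, the others at 1248 to 1610 CPM).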

How the results depend on the processing

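All 183 genes called higher and all 25 called lower kept their sign under each alternative in which they were tested. The alternatives refit the libraries that chose these genes, which largely fixes the sign, so this adds no support. The counts themselves moved. With file number as a term 60 genes were higher and 2 lower. A cutoff of 10 CPM gave 300 and 39, a cutoff of 50 CPM gave 307 and 85, and log2 CXCL10 as a continuous term gave 386 and 114. The WD+S libraries alone gave 2 and 0, and the HHD+S libraries alone gave 286 and 29 over all genes that their own filter kept. DESeq2 gave 264 and 114 and limma-voom 277 and 73. The second table gave 243 and 56. In alternatives chosen after seeing the data, the libraries without the 2 nearest the cutoff (WD+S replicates 1 and 7) gave 378 and 108, the WD+S libraries of file number 2 alone gave 0 and 0, and the libraries with Y-linked reads alone (3 high, 3 low) gave 0 and 0 by edgeR, with 403 and 284 at an unadjusted p under 0.05. For the libraries with Y-linked reads 11506 genes were tested, and a share of 0.05 is expected at that unadjusted p by chance alone. The cause of these shifts was not tested, and the fits within subsets have fewer libraries.

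Leaving out each library in turn gave 103 to 291 genes higher and 5 to 84 lower. The count of higher genes moved by over 1.5 times without WD+S replicate 7 (291), WD+S replicate 8 (103) or HHD+S replicate 6 (113). That of lower genes did so without WD+S replicate 1 (47), WD+S replicate 5 (46), WD+S replicate 7 (84), WD+S replicate 8 (7), HHD+S replicate 5 (12) or HHD+S replicate 6 (5). The interaction call went to 0 without any one high library. Where a diet is left with 1 high library, it is assumed to vary like the others. Of 69 called genes named here, 33 were still called with file number as a term and 2 in WD+S alone.

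Across the HHD libraries none of the 7 relations passed on either scaling. Without the 2 libraries farthest from the CXCL10 median, the sign of r reversed for RSAD2 (0.62), CMPK2 (-0.16), OAS1 (0.38), GBP1 (-0.034) and CXCL9 (-0.66). No paired analysis was possible because the replicate numbers follow the order of deposit and pair no animals.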
